A study of Mus musculus with 6 samples.

Results

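Macrophage and myeloid cell genes were examined in the corneal epithelium of adult mice through 10 genes: Adgre1, Csf1r, Lyz2, Cd14, Cd68, Fcer1g, Tyrobp, C1qa, C1qb and C1qc. They were taken as the rows of the gene table with these symbols, which gave 10 of its 17866 genes. Bulk RNA-seq libraries came from C57BL/6 mice at 6 months of age, 3 of genotype WT and 3 labelled Rela-/- (called KO here). Per the study's methods, the KO animals carried Krt14-Cre and a floxed Rela allele, so that the p65 subunit of NF-κB was deleted in K14-expressing epithelial cells, and the epithelial layer was separated from the rest of the cornea before RNA was extracted. Krt14-Cre acts in limbal, conjunctival and skin epithelium as well as in the cornea, and which alleles the WT animals carried is not given in the sources used here. No myeloid cell was sorted, so each value is the level of a transcript in a whole epithelial sample, and the comparison asked how much myeloid transcript the sample held in each genotype.

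Macrophages depend on the receptor CSF1R and its ligands CSF1 and IL-34 for survival, and mouse macrophages are commonly recognized by F4/80, the product of Adgre1. They kill and digest microbes with lysozyme (Lyz2) and lysosomes rich in CD68, sense bacterial lipopolysaccharide through CD14, and signal from many activating receptors through the adaptors TYROBP (DAP12) and FCER1G, which carry tyrosine-based motifs called ITAMs. Tissue macrophages are also a major source of C1q, the recognition molecule that starts the classical complement pathway. In a normal cornea such cells lie mainly in the stroma and towards the limbus, with few leukocytes among the epithelial cells.

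In KO samples 9 of the 10 genes were higher than in WT and 1, Cd68, did not pass the test. Lyz2 showed the largest difference, followed by Adgre1 and Tyrobp, and the C1q chains, Csf1r and Fcer1g each rose about equally, between 11.8-fold and 12.8-fold. Cd14 rose 2.30-fold. The median log2 fold change of the 10 genes was 3.66, against 0.006 over all 13305 genes tested. Genes were called at an adjusted p under 0.05 (edgeR quasi-likelihood test, Benjamini-Hochberg adjustment over all genes tested). By this rule 62.0% of all genes tested were called, 31.8% higher and 30.2% lower in KO, and none of the members was lower. The study's own threshold asks for a 2-fold change and an adjusted p no greater than 0.001 (edgeR here as well). It was met by 8 members, all higher in KO, and by 11.6% of all genes in the higher and 8.24% in the lower direction. A log2 fold change of 3 or more together with a call was found for 8 members and for 6.07% of all genes. Because the samples were bulk RNA, a change in the number of cells of a type and a change in RNA per cell cannot be told apart in any of these values.

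Library totals were 20158404 to 20880347 estimated counts, at which 3 counts corresponded to 0.137 to 0.152 CPM (normalized counts scaled to a library total of 1000000 and to the composition factors described below). The targeted gene Rela had 1844 to 1871 counts in the WT libraries and 223 to 318 in the KO libraries, a log2 fold change of -2.60 (SE 0.141, edgeR adjusted p = 2.74e-06). The corneal keratin Krt12 held 755776 to 811469 counts in WT and 109690 to 161300 in KO, while the epidermal keratin Krt10 held 145 to 226 counts in WT and 124200 to 146400 in KO. The KO samples, labelled corneal epithelium, thus differed from WT in epithelial markers too. Of the 10 general leukocyte genes, 9 were higher in KO and 1, Arhgdib, did not pass. Floors and counting intervals given here cover counting error only, since PCR copies were not told apart from separate molecules.

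**Figure D1:**
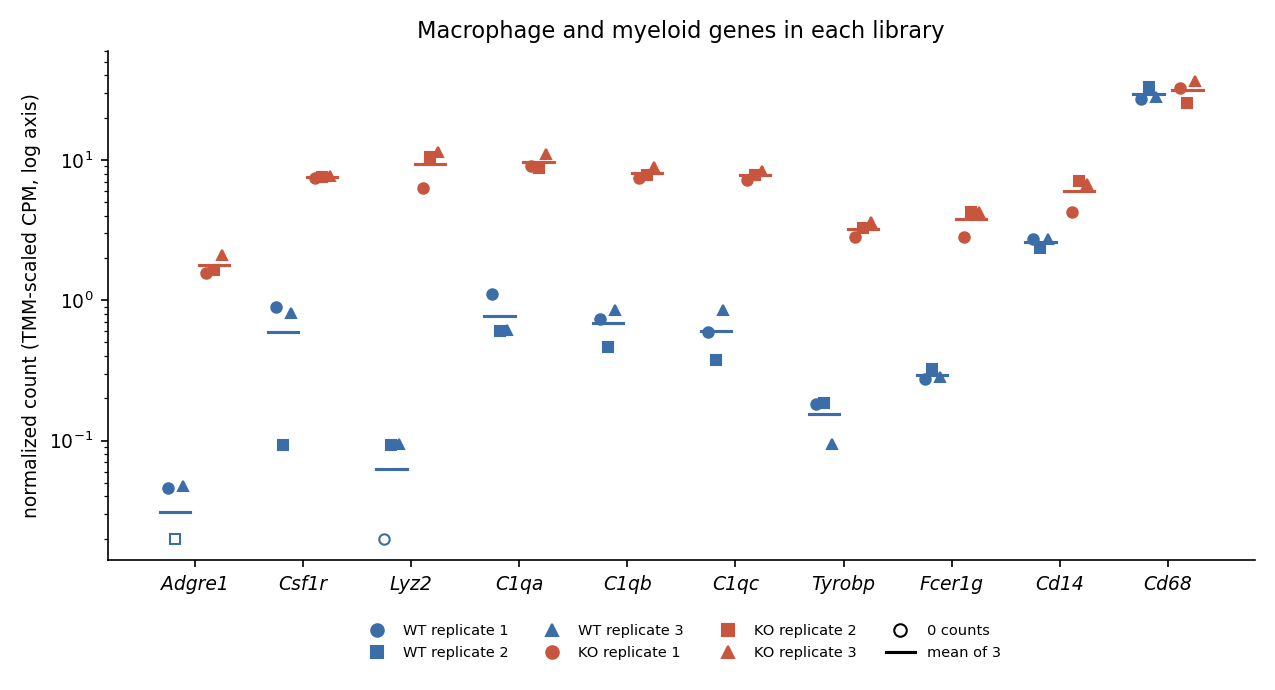
Normalized count (TMM-scaled CPM, log axis) of each of the 10 genes in the 3 WT libraries (blue) and the 3 KO libraries (red), with horizontal lines at the mean of each group of 3 and open symbols at the bottom for libraries with 0 counts. For 9 genes every KO library lies above every WT library, and for Cd68 the groups overlap near 30 CPM.

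Adgre1 (GRCm38, chromosome 17, 57358651 to 57483529, plus strand), which encodes the adhesion receptor F4/80, was close to absent from the WT libraries. It had 1, 0 and 1 counts in WT replicates 1 to 3 and 31, 33 and 42 counts in KO. The highest WT library was thus at 1 count and the lowest KO library at 31, and the groups did not overlap. The normalized level was 0.0311 ± 0.0269 CPM in WT against 1.77 ± 0.281 CPM in KO (means with SD over 3 libraries each, as throughout). With 2 counts over the whole WT group, the pooled ratio of KO to WT was 57.2, with an exact 95% counting interval of 15.4 to 478. The log2 fold change was 5.58 (SE 0.522, edgeR adjusted p = 4.44e-05). Non-overlap with KO above WT was found for 9 members and for 34.7% of all genes tested, and with KO below WT for none of the members and for 33.9% of all genes.

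Csf1r (chromosome 18, plus strand), the receptor tyrosine kinase for CSF1 and IL-34, had 19.4, 2 and 17 counts in WT against 148, 151 and 154 in KO. The highest KO library was 1.03 times the lowest, the narrowest range of the 10 genes, whereas WT replicate 2 stood well below the other WT libraries. The level was 0.596 ± 0.438 CPM in WT against 7.57 ± 0.0961 CPM in KO, which was 12.7-fold higher (log2 fold change 3.67, SE 0.461, edgeR adjusted p = 2.12e-04). Its estimated counts were not all whole numbers, since the counting method shares reads that fit several genes. Of the 5776 distinct 50-base stretches (the read length) in its annotated transcripts, 824 (14.3%) also occurred in transcripts of the neighbouring gene Hmgxb3, which was looked up after its values were seen and had a log2 fold change of -0.16 (edgeR adjusted p = 0.268).

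Lyz2, the lysozyme made by macrophages and other phagocytes, had 0, 2 and 2 counts in WT against 125, 210 and 227 in KO. All 3 WT libraries were at 2 counts or fewer, and KO replicate 1 was the lowest of the KO libraries. Its level was 0.0626 ± 0.0542 CPM in WT against 9.39 ± 2.67 CPM in KO. The pooled ratio was 152, with a counting interval of 58.9 to 558 because the WT libraries held 4 counts in all, and the log2 fold change was 7.11 (SE 0.492, edgeR adjusted p = 9.5e-06).

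The reads of Lyz2 could not be fully told apart from those of its neighbour Lyz1, which makes a lysozyme known from Paneth cells of the gut and is a near-identical copy. In the deposited coordinates (GRCm38, chromosome 10, 117266597 to 117292909, minus strand) the span of Lyz2 contained Lyz1. The coding sequences of both genes have 447 bases in GENCODE M21 and differ at 22 of them (95.1% identity), and the longest run without a difference is 118 bases, longer than a read. The first 120 coding bases, which hold 11 of the differences, are shown for both genes because such differences are what lets a read be assigned. Capitals mark the differing bases, and positions count from 1 at the A of the start codon, so that the first is A7G and the last within this stretch is A120T, with the base of Lyz2 first.
Lyz2: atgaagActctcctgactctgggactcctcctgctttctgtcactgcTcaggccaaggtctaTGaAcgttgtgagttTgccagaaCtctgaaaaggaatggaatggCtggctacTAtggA
Lyz1: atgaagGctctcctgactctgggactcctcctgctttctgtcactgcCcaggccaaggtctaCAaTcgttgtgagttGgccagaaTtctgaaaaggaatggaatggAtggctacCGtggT

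Lyz1 had 0 counts in each WT library and 11.7, 18.3 and 20.1 estimated counts in KO, at least 5.89-fold higher against a floor of 3 counts per library (edgeR adjusted p = 5.13e-04). It made up 8.56%, 8.02% and 8.13% of the counts assigned to either gene in KO replicates 1, 2 and 3. The split between the genes is that made by the authors' counting. In whole transcripts, 195 of the 1267 distinct 50-base stretches of Lyz2 (15.4%) also occurred in Lyz1.

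The C1q chains are encoded by 3 neighbouring genes on the minus strand of chromosome 4 (GRCm38, 136880145 to 136898844 in the deposited coordinates, in the order C1qb, C1qc, C1qa by position), and 1 chain of each joins in every subunit of the C1q protein. C1qa had 24, 13 and 13 counts in WT against 180, 175 and 223 in KO. C1qb had 16, 10 and 18 counts in WT against 146, 156 and 178 in KO. C1qc had 13, 8 and 18 counts in WT against 141, 155 and 168 in KO. The lowest KO value of each chain was more than 7 times its highest WT value, and KO replicate 3 was the highest library for all 3 chains.

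The 3 genes differed between genotypes by nearly the same amount. C1qa went from 0.773 ± 0.283 to 9.67 ± 1.26 CPM (12.5-fold, log2 fold change 3.63, SE 0.258, edgeR adjusted p = 1.06e-05). For C1qb the levels were 0.683 ± 0.198 and 8.03 ± 0.759 CPM (11.8-fold, log2 fold change 3.54, SE 0.243, edgeR adjusted p = 8.89e-06). C1qc had 0.607 ± 0.240 CPM in WT against 7.76 ± 0.615 CPM in KO (12.8-fold, log2 fold change 3.67, SE 0.274, edgeR adjusted p = 1.37e-05). Their proportions, compared per length as TPM, stayed in a narrow range in KO, where C1qa held 35.5% to 38.5% of the summed C1q level, C1qb 31.4% to 32.2% and C1qc 30.1% to 32.3%. The WT shares were wider, from 26.2% to 44.7% for C1qa, at counts of 8 to 24 per library.

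The adaptors followed the same pattern. Tyrobp (GRCm38, chromosome 7, 30413788 to 30417582, plus strand) had 4, 4 and 2 counts in WT against 56, 65 and 73 in KO. Fcer1g (chromosome 1, 171229572 to 171234349, minus strand), the common gamma chain of Fc receptors, had 6, 7 and 6 counts in WT against 56, 85 and 85 in KO. For both genes the highest WT count was 7 or lower and the lowest KO count was 56. Tyrobp went from 0.155 ± 0.0520 to 3.25 ± 0.401 CPM (21.0-fold, log2 fold change 4.33, SE 0.331, edgeR adjusted p = 1.53e-05). Fcer1g went from 0.295 ± 0.0271 to 3.78 ± 0.816 CPM (12.8-fold, log2 fold change 3.65, SE 0.304, edgeR adjusted p = 2.43e-05).

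Cd14 (chromosome 18, minus strand), the co-receptor that hands lipopolysaccharide to the TLR4 complex, was already present in WT and rose less than the other called members. Its counts were 60, 51 and 58 in WT against 84, 142 and 135 in KO. KO replicate 1 was closer to the WT libraries than to the other KO libraries, but the groups did not overlap. The level was 2.62 ± 0.216 CPM in WT against 6.04 ± 1.55 CPM in KO, which was 2.30-fold higher (log2 fold change 1.201, SE 0.233, edgeR adjusted p = 0.00223), and this did not reach the study's threshold.

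Cd68 (GRCm38, chromosome 11, 69664213 to 69666170, minus strand), which encodes a heavily glycosylated protein of late endosomes and lysosomes, was the exception. It had 593, 715 and 598 counts in WT against 641, 505 and 734 in KO. The lowest and the highest of the 6 libraries were both KO, so the groups overlapped fully. The level was 29.6 ± 3.24 CPM in WT against 31.5 ± 5.69 CPM in KO. The log2 fold change was 0.09 (SE 0.149, approximate 95% interval from this SE and a normal curve -0.20 to 0.38, edgeR adjusted p = 0.627). The sign of this difference turned with the scaling, to -0.01 when only library totals were used. The interval lay below the log2 fold change of each of the other 9 genes, but a normal curve makes it somewhat too narrow for 3 libraries per group.

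The members differed in their make-up as well as in their levels. Compared per length as TPM, Cd68 came first in both genotypes, at 53.2 ± 6.10 TPM in WT and 44.5 ± 7.54 TPM in KO, where each library of Cd68 exceeded every library of every other member. In WT it was followed by Cd14 at 3.51 ± 0.310 TPM, then by C1qa, C1qb, C1qc and Fcer1g between 1.03 and 1.62 TPM, whose neighbours in the order overlapped. Tyrobp, Csf1r, Lyz2 and Adgre1 came last.

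In KO the order of the 10 genes changed. C1qa at 15.9 ± 1.86 TPM, Lyz2 at 15.8 ± 4.42, C1qb at 13.4 ± 1.13 and C1qc at 13.1 ± 0.966 TPM came after Cd68, and each overlapped with the next of these. Tyrobp at 10.5 ± 1.204 and Fcer1g at 10.4 ± 2.24 TPM overlapped with each other. Cd14 followed at 6.38 ± 1.64, Csf1r at 3.53 ± 0.0802 and Adgre1 at 0.973 ± 0.146 TPM, each without overlap. Lyz2 went from the ninth place to the third, and Cd14 from the second to the eighth.

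**Figure D2:**
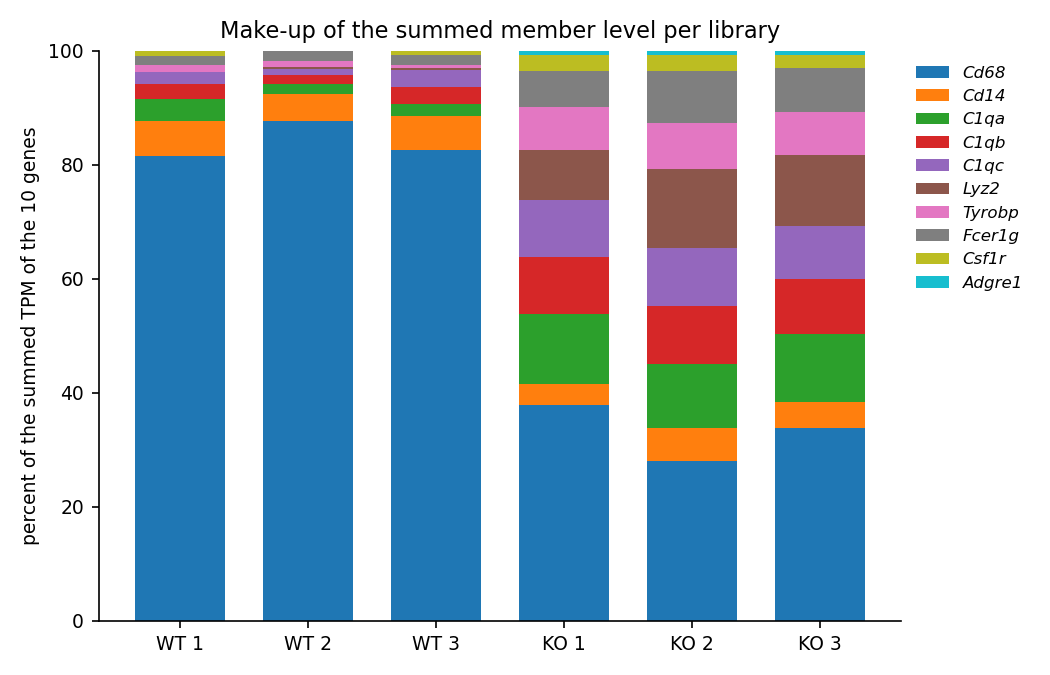
Share of each of the 10 genes in their summed TPM, in percent, for each of the 6 libraries (stacked bars from 0 to 100). Cd68 fills 81.6% to 87.7% of the bar in WT and 28.0% to 37.8% in KO, where the C1q chains, Lyz2, Tyrobp and Fcer1g take most of the rest.

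Summed over the 10 genes, the normalized level was 33.7, 37.8 and 34.7 CPM in WT and 81.4, 84.1 and 101 CPM in KO, a ratio of 2.51. Cd68 made up most of the WT value. Without Cd68, a sum formed after its values were seen, the totals were 6.57, 4.51 and 6.39 CPM in WT and 49.0, 58.8 and 64.0 CPM in KO, a ratio of 9.83. Without Cd68 and Cd14 the ratio was 15.99, from 3.20 ± 0.925 to 51.2 ± 6.30 CPM. WT replicate 2 was the lowest library in both reduced sums, and KO replicate 1 was the lowest of the KO libraries.

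The spread among the KO libraries differed between the genes. The coefficient of variation was 1.27% for Csf1r, 7.92% for C1qc, 9.45% for C1qb and 12.4% for Tyrobp, and it reached 25.8% for Cd14 and 28.4% for Lyz2. KO replicate 3 was the highest KO library for 8 of the 10 genes and KO replicate 2 for the other 2, Cd14 and Fcer1g. KO replicate 1 was the lowest for 8 and KO replicate 2 for Cd68 and C1qa.

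To set the members against leukocytes in general, their counts were divided by those of Ptprc, which encodes CD45 and is expressed by nearly all leukocytes. Ptprc had 13, 5 and 8 counts in WT against 105, 87 and 123 in KO (log2 fold change 3.69, SE 0.332, edgeR adjusted p = 3.62e-05). The 3 C1q chains, Csf1r, Fcer1g and Tyrobp had ratios to Ptprc that overlapped between the genotypes. C1qa, for example, had 1.63 to 2.60 counts per count of Ptprc in WT and 1.71 to 2.01 in KO.

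The other 4 members had ratios that did not overlap. Adgre1 went from 0 to 0.125 counts per Ptprc count in WT to 0.295 to 0.379 in KO, and Lyz2 from 0 to 0.400 in WT to 1.19 to 2.41 in KO. Cd14 went the other way, from 4.62 to 10.2 in WT to 0.800 to 1.63 in KO, and so did Cd68, from 45.6 to 143 in WT to 5.81 to 6.11 in KO. Of the 10 ratios compared, these 4 reached p = 0.1 by the two-sided exact permutation test, the smallest that 3 against 3 libraries allow. The 5 to 13 Ptprc counts of the WT libraries limit the WT ratios.

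**Figure D3:**
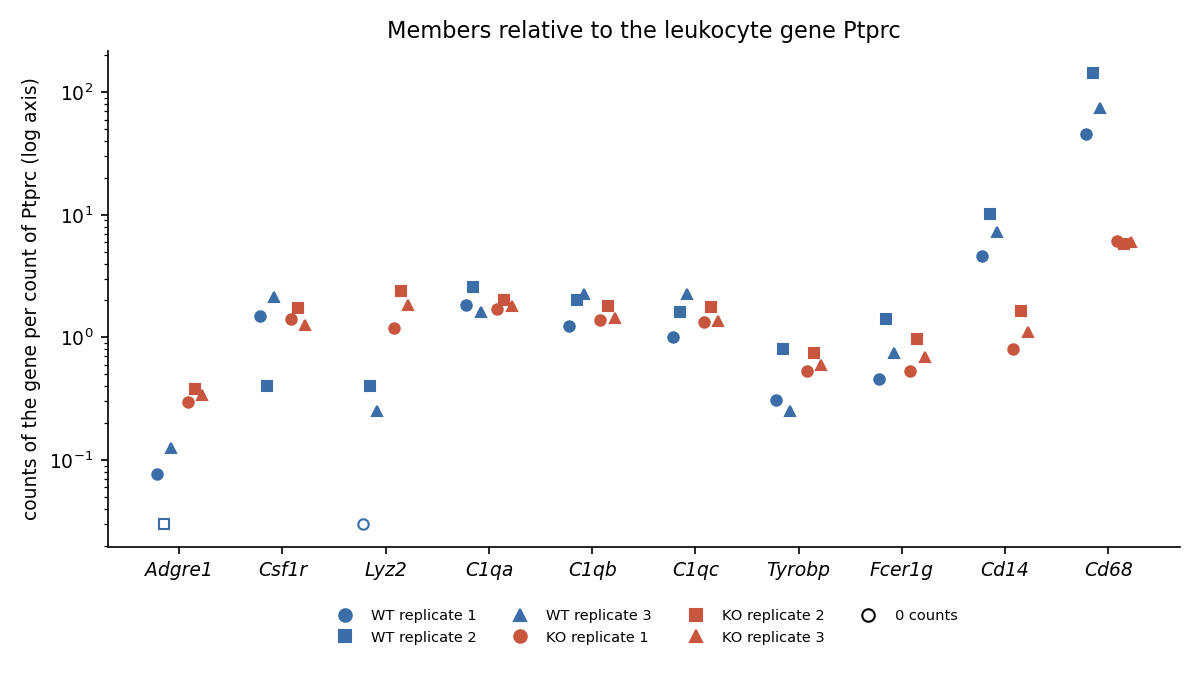
Counts of each member per count of Ptprc (log axis) in the 3 WT libraries (blue) and the 3 KO libraries (red), with open symbols for 0 counts. Ratios of the C1q chains, Csf1r, Tyrobp and Fcer1g overlap between genotypes, those of Adgre1 and Lyz2 are higher in KO, and those of Cd14 and Cd68 are lower in KO.

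The ligands and other receptors of the colony-stimulating factor family were examined next to Csf1r. Of 6 genes, 4 were higher in KO, 1 was lower and 1 did not pass. The shares over all genes tested, 31.8% higher and 30.2% lower, stand beside the counts of every list here. Il34, an epithelial ligand of CSF1R that maintains Langerhans cells, had 15, 13 and 25 counts in WT against 182, 179 and 146 in KO. It was 10.3-fold higher, from 0.825 ± 0.313 to 8.49 ± 1.06 CPM (log2 fold change 3.36, SE 0.267, edgeR adjusted p = 1.91e-05). The other ligand, Csf1, had 173 to 216 counts in WT and 192 to 243 in KO, overlapping between genotypes (log2 fold change 0.29, edgeR adjusted p = 0.142).

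Csf3, which encodes the granulocyte factor G-CSF, rose from 4 to 14 counts in WT to 30 to 31 in KO (log2 fold change 1.79, edgeR adjusted p = 0.00448), and its receptor Csf3r rose with a log2 fold change of 1.13 (edgeR adjusted p = 0.00757). The chains of the GM-CSF receptor, encoded by Csf2rb and Csf2ra, diverged. Csf2rb rose from 1.66 to 5.55 counts in WT to 18.0, 39.2 and 87.9 in KO (log2 fold change 3.91, SE 0.719, edgeR adjusted p = 0.00167), with a value of 4.62 without WT replicate 2 and 3.16 without KO replicate 3. Csf2ra fell by 0.80 on the log2 scale of the counts (edgeR adjusted p = 0.00103), from 28.2 ± 2.63 to 16.2 ± 2.30 CPM. Per length the fall was larger, from 24.4 ± 3.85 to 7.52 ± 1.17 TPM, with a log2 difference of -1.44 on log2(FPKM + 0.1).

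**Figure D4:**
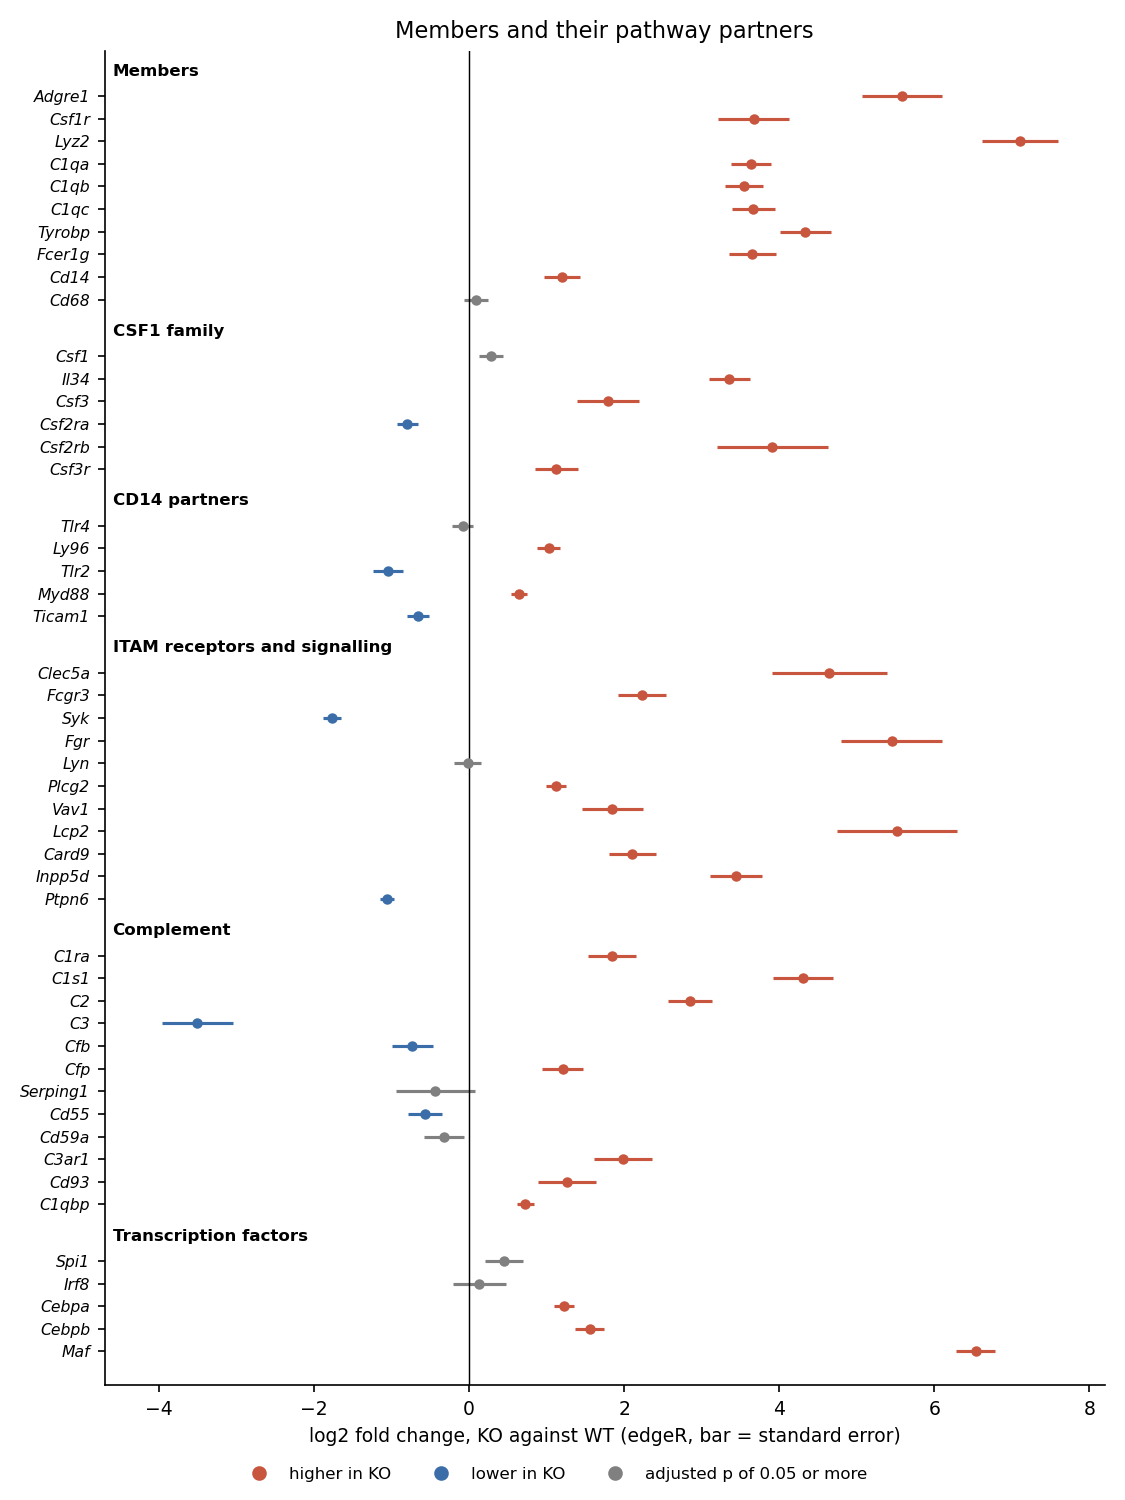
Log2 fold change of KO against WT (edgeR) for the 10 members and for tested genes of their pathways, with bars for the standard error, red for genes higher in KO, blue for genes lower in KO and grey for genes that did not pass an adjusted p of 0.05. The members other than Cd14 and Cd68 lie above 3.5, while the genes around CD14 lie between -1.05 and 1.03 and the complement genes spread from C3 at -3.50 to C1s1 at 4.30.

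The partners of CD14 in the sensing of lipopolysaccharide were called in both directions, as were all genes tested (31.8% higher and 30.2% lower). Of 5 tested genes 2 were higher, 2 lower and 1 did not pass, and Lbp had too few counts for the test. Ly96, which encodes the MD-2 subunit that binds lipopolysaccharide, rose 2.04-fold from 4.20 ± 0.174 to 8.56 ± 0.970 CPM (edgeR adjusted p = 5.29e-04), and the adaptor Myd88 rose 1.56-fold (edgeR adjusted p = 7.47e-04). Tlr4, the signalling receptor itself, had 707 to 952 counts in WT and 684 to 793 in KO (log2 fold change -0.08, SE 0.133, edgeR adjusted p = 0.613). Tlr2, a receptor for bacterial lipopeptides that also works with CD14, fell by 1.05 on the log2 scale (edgeR adjusted p = 0.00155), and Ticam1, the adaptor TRIF, fell by 0.66 (edgeR adjusted p = 0.0034).

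Receptors that pair with TYROBP or FCER1G were at low counts, so only 1 of each list was tested. Clec5a, which pairs with TYROBP, had 1, 1 and 0 counts in WT against 15, 29 and 11 in KO (log2 fold change 4.64, SE 0.741, edgeR adjusted p = 7.72e-04). Fcgr3, an activating IgG receptor that pairs with FCER1G, rose 4.84-fold from 7.73 to 11.7 counts in WT to 34.0 to 51.5 in KO (edgeR adjusted p = 3.7e-04). Among the untested genes, the inflammatory receptor Trem1 had 0 counts in each WT library and 9, 25 and 18 in KO, and Trem2 had 0 in WT and 3, 3 and 4 in KO. Clec4n, which encodes the fungal receptor dectin-2, had 1, 0 and 0 counts in WT against 8, 24 and 28 in KO, and Fcgr1 had 1 to 3 in WT and 9 to 14 in KO. Clec4e had 0 counts in WT against 2, 16 and 14 in KO, and Sirpb1a, Siglech and Fcgr4 had few counts in either genotype. Other untested receptors overlapped between the genotypes. Cd300lb had 1, 6 and 3 counts in WT against 5, 4 and 3 in KO, and Oscar had 2, 1 and 0 against 0, 1 and 1. Fcer1a had 0 counts in every library but KO replicate 3, which held 3.

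Downstream of these adaptors 10 genes were tested, of which 7 were higher, 2 lower and 1 did not pass. The Src family kinase Fgr, typical of myeloid cells, went from 0 or 1 counts in WT to 17 to 20 in KO (log2 fold change 5.45, SE 0.655, edgeR adjusted p = 1.67e-04). The adaptor Lcp2 (SLP-76) went from 0 or 1 counts to 14 to 29, with a log2 fold change of 5.52 (edgeR adjusted p = 3.76e-04). Fgr reached 7.28 without WT replicate 2 and Lcp2 7.36 without WT replicate 3, the only WT libraries that held a count of them. Inpp5d, which encodes the inhibitory phosphatase SHIP-1, rose 11.1-fold (edgeR adjusted p = 5.24e-05). Plcg2, Vav1 and Card9 rose with log2 fold changes between 1.12 and 2.10.

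The kinase and the phosphatase most closely tied to the ITAM and its inhibitory counterpart were high in WT and fell. Syk, which binds phosphorylated ITAMs, had 1721, 1501 and 1604 counts in WT against 489, 432 and 388 in KO, leaving 29.3% of it (log2 fold change -1.77, SE 0.114, edgeR adjusted p = 6.35e-06). Ptpn6, the phosphatase SHP-1, went from 840 to 865 counts to 369 to 388 (log2 fold change -1.06, SE 0.0873, edgeR adjusted p = 2.35e-05). Lyn, at 631 to 1008 counts in WT and 694 to 815 in KO, did not pass (log2 fold change -0.02, edgeR adjusted p = 0.929). The same WT libraries held 2 to 4 counts of Tyrobp and 5 to 13 of the leukocyte gene Ptprc. Which cells the counts of Syk, Ptpn6 and Lyn came from was not tested.

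Among 13 tested complement genes other than C1q, 8 were higher in KO, 3 were lower and 2 did not pass. The proteases that complete the C1 complex rose, C1s1 from 6.38, 21.8 and 11.2 counts in WT to 203, 200 and 319 in KO (log2 fold change 4.30, SE 0.386, edgeR adjusted p = 3.58e-05, and 4.91 without WT replicate 2) and C1ra 3.59-fold (edgeR adjusted p = 0.00105). C2, which the C1 complex cleaves, rose 7.27-fold from 8 to 17 counts to 79 to 87 (edgeR adjusted p = 6.3e-05). The alternative pathway protein Cfp (properdin) rose with a log2 fold change of 1.21 (edgeR adjusted p = 0.00461). C3ar1, the receptor for the fragment C3a, rose 3.90-fold (edgeR adjusted p = 0.00187), and C5ar1 was below the test's filter with 0, 0 and 1 counts in WT against 2, 17 and 24 in KO.

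C3, the component on which all complement pathways converge, went in the opposite direction from C1q. It had 354, 1083 and 426 counts in WT against 39, 61 and 52 in KO, leaving 8.79% of it (log2 fold change -3.50, SE 0.456, edgeR adjusted p = 2.57e-04). WT replicate 2 was far above the other WT libraries, and without it the log2 fold change was -2.83. Factor B (Cfb) and the inhibitor Cd55 fell by 0.73 and 0.57 on the log2 scale (edgeR adjusted p = 0.0381 and 0.0469), but the call of Cfb was lost in 8 of 13 alternative settings and that of Cd55 in 7 of 14. Serping1 and Cd59a, which encode inhibitors of C1 and of the membrane attack complex, did not pass. Cd93 and C1qbp, both first described as C1q-binding proteins, rose with log2 fold changes of 1.26 and 0.73 (edgeR adjusted p = 0.0167 and 4.55e-04), and the call of Cd93 was lost in 5 alternatives.

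Of the transcription factors known to direct myeloid development, 6 were tested, of which 4 were higher and 2 did not pass. The factor PU.1, encoded by Spi1 and required for macrophages, had 32, 29 and 41 counts in WT against 47, 43 and 39 in KO (log2 fold change 0.45, SE 0.244, edgeR adjusted p = 0.144). Irf8 had 26 to 60 counts in WT and 33 to 55 in KO (edgeR adjusted p = 0.754). Both were thus present in WT libraries that held few counts of most members. The C/EBP factors Cebpa and Cebpb rose 2.34-fold and 2.94-fold (edgeR adjusted p = 7.79e-05 and 1.61e-04). Maf rose from 12.4, 20.0 and 12.7 counts to 1538, 1364 and 999, a log2 fold change of 6.54 (SE 0.254, edgeR adjusted p = 6.05e-07). Cebpa, Cebpb and Maf also act in differentiating keratinocytes, and epidermal genes rose in the same libraries, as given above for Krt10. Which cells the counts of these 3 factors came from was not tested.

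Promoter sequence was looked at because most members rose together. RefSeq promoters (GRCm38.p6) were at hand for 5 of the 10 genes, Fcer1g, C1qb, C1qc, Lyz2 and Cd68, and the 250 bases before each start were searched on both strands. The PU.1 core GAGGAA occurred in C1qb, C1qc and Cd68, and in 23.3% of all 32851 promoters. The C/EBP core TTNNGNAA occurred in Lyz2, C1qc and Cd68, and in 36.8% of all promoters. The NF-κB consensus occurred in C1qc and in 3.90% of all promoters, and TATAAA in none of the 5 and in 12.4% of all promoters. Among these 5 genes only Cd68 did not pass the test of KO against WT. Whether the matches had a part in the level of any member was not tested. The windows of 30 bases around these matches are shown in the direction of the gene, with the motif in capitals, 9 in all, of which 3 are C/EBP matches of Cd68.
C1qb, PU.1 core, chr4:136886213-136886242, minus strand: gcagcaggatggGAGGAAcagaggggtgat
C1qc, PU.1 core on the opposite strand, chr4:136893090-136893119, minus strand: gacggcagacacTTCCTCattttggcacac
Cd68, PU.1 core, chr11:69666378-69666407, minus strand: tttcttaccaatGAGGAAagggcttcccat
C1qc, NF-κB consensus, chr4:136892936-136892965, minus strand: tgtgggggagGGGGCTCTCCctgctctggg
Lyz2, C/EBP core, chr10:117282309-117282338, minus strand: accacaagctgTTGGGAAAggagggacttg
C1qc, C/EBP core, chr4:136892977-136893006, minus strand: tcagggaaaatTTCTGGAAaggggatgtag
Cd68, C/EBP core, chr11:69666317-69666346, minus strand: gcaagttttgcTTAGGTAAgttccgtgtga
Cd68, C/EBP core, chr11:69666221-69666250, minus strand: tcacagcctaaTTGTGAAAaccaatggctt
Cd68, C/EBP core on the opposite strand, chr11:69666195-69666224, minus strand: gcttgagtgggTTGCTAAAgctgaggtgtc
These are matches of letters, not measured binding sites.

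Other genes known from macrophages were compared with the members. Of 14 tested, 10 were higher in KO, none was lower and 4 did not pass, with a median log2 fold change of 2.27. Those with a high level included Apoe, a lipid carrier, the cysteine protease Ctss, the folate receptor Folr2 and the melanosome and lysosome protein Gpnmb. Apoe rose 3.42-fold from 76.4 ± 22.1 to 261 ± 41.0 CPM (edgeR adjusted p = 1.57e-04), Gpnmb rose 6.36-fold (edgeR adjusted p = 6.19e-04) and Ctss rose 1.68-fold (edgeR adjusted p = 0.00648). Folr2 had 40 to 93 counts in WT and 64 to 86 in KO (edgeR adjusted p = 0.316). Cd163, Mrc1 and Pf4, markers of some resident macrophages, had too few counts to be tested.

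Lysosomal genes were examined because Cd68 encodes a lysosomal protein. Of 14 tested, 5 were higher, 4 were lower and 5 did not pass, near the shares over all genes tested (31.8% higher and 30.2% lower). The log2 fold changes of the list ranged from -1.29 to 5.05, with a median of 0.09. Ctsd, an aspartic protease, rose 1.98-fold from 618 ± 41.9 to 1222 ± 112 CPM (edgeR adjusted p = 1.43e-04), and Psap, the precursor of the saposins, fell by 0.58 on the log2 scale (edgeR adjusted p = 0.00168). Ctsl and Ctsb did not pass, although Ctsb was called higher in 2 alternatives, and the call of Lamp1 (log2 fold change 0.32, edgeR adjusted p = 0.018) was lost in 3 alternatives. The summed level of this list was 3427 to 3565 CPM in WT and 3923 to 4307 CPM in KO. Ctsd had the largest rise in CPM of the list, while Psap fell from 593 ± 33.9 to 398 ± 34.8 CPM. The sum therefore does not show a rise of the list as a whole.

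Several members are shared by other myeloid cells, so markers of these were counted too. Of 8 tested dendritic and Langerhans cell genes 6 were higher in KO and none lower, with a summed level of 9.91 to 21.1 CPM in WT and 102 to 186 CPM in KO. Cd74, the invariant chain of MHC class II, rose 8.04-fold (edgeR adjusted p = 1.09e-04) and H2-Aa, a class II chain, 14.9-fold (edgeR adjusted p = 3.22e-05). Of 2 tested monocyte genes, Ccr2, the receptor for CCL2, rose 5.60-fold (edgeR adjusted p = 2.05e-04), while Plac8 overlapped between the groups (edgeR adjusted p = 0.142), although it was called lower in 2 alternatives. Ly6c2, a marker of inflammatory monocytes, was not tested, with 0, 0 and 1.42 counts in WT against 7.44, 4.77 and 28.3 in KO.

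Of the 5 tested neutrophil genes 4 were higher and 1 was lower. S100a8 and S100a9, which keratinocytes also make, had 0, 160 and 1 and 17, 1263 and 28 counts in WT, with WT replicate 2 far above the others, and 1297 to 8001 counts in KO. Their log2 fold changes were 5.63 and 3.64 (edgeR adjusted p = 0.00213 and 0.0354) and 12.1 and 7.91 without WT replicate 2, and the call of S100a9 was lost in 4 alternatives. Ltf, which encodes the secreted iron-binding protein lactoferrin, rose 2.95-fold (edgeR adjusted p = 0.00232) and the chemokine receptor Cxcr2 1.77-fold (edgeR adjusted p = 0.00512). Ly6g had 81.45, 48.6 and 199.7 counts in WT against 14.9, 20.9 and 52.2 in KO, so the groups overlapped. It fell by 1.80 on the log2 scale (edgeR adjusted p = 0.0291), a call lost in 3 alternatives, with a log2 fold change of -1.01 without WT replicate 3 and -2.50 without KO replicate 3. The 4 neutrophil genes too low to be tested are named after their values were seen. Elane and Ngp had 0 or 1 counts in every library, while Retnlg had 0 counts in each WT library against 0, 9 and 4 in KO and Mmp8 had 0 counts in each WT library against 4, 3 and 1 in KO.

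**Figure D5:**
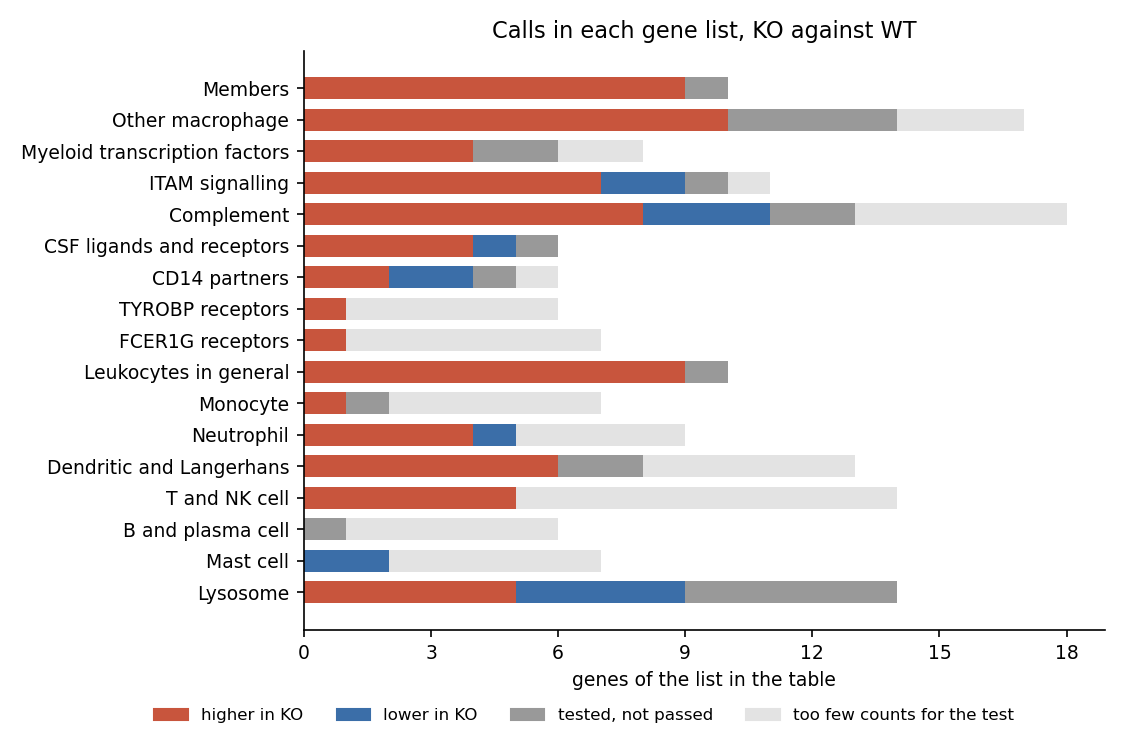
Number of genes in each list that were higher in KO (red), lower in KO (blue), tested but not passed (dark grey) or had too few counts for the test (light grey). The members, the other macrophage genes and the general leukocyte genes hold 9, 10 and 9 genes higher in KO and none lower, while the CD14 partners, complement genes and lysosomal genes went both ways. Over all genes tested 31.8% were higher and 30.2% lower in KO.

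Lymphoid and mast cell markers were counted as well. Of 14 T and NK cell genes 5 were tested and all 5 were higher in KO, with a summed level of 2.01 to 2.23 CPM in WT and 17.6 to 23.2 CPM in KO, of which Cd5 held the largest part. Of 6 B and plasma cell genes only Cd79b was tested and it did not pass (edgeR adjusted p = 0.878), and Cd79a had 0 to 2 counts in every library. Of the mast cell genes, Kit and Cpa3 were tested and both fell, by 3.45 and 2.13 on the log2 scale (edgeR adjusted p = 2.2e-06 and 0.00268), while Hdc, the histamine-forming enzyme, was below the test's filter with 2, 0 and 1 counts in WT against 7, 61 and 52 in KO. The mast cell proteases Mcpt4 and Tpsb2 had 0 counts in WT against 0 to 4 in KO. Kit is also made by melanocytes and some epithelial cells, and at 5265 to 7985 counts in WT it was far above the other genes of its list.

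Genes of the tissue below the epithelium and of some other cell types were counted too. Of 6 tested stromal genes 5 were higher in KO and 1 was lower, with a summed level of 13.4 to 16.9 CPM in WT and 19.2 to 32.4 CPM in KO. Vim, the intermediate filament of mesenchymal cells and leukocytes, rose 11.4-fold (edgeR adjusted p = 6.41e-05) and Dcn, which encodes a stromal proteoglycan, had 1, 0 and 1 counts in WT against 153, 24 and 93 in KO. Pdgfra, a growth factor receptor of fibroblasts, went the other way, from 275, 235 and 330 counts in WT to 23, 28 and 21 in KO (log2 fold change -3.43, edgeR adjusted p = 4.7e-06). Pdgfra made up most of the summed WT level of this list, at 10.9 to 15.6 CPM in WT against 1.05 to 1.40 CPM in KO. The summed level therefore understates the rise of the rest of the list. The rise of Col1a1 (log2 fold change 1.95, edgeR adjusted p = 0.036) was lost as a call in 4 of 13 alternatives and was 3.30 without WT replicate 2. The endothelial gene Pecam1 rose with a log2 fold change of 2.54 (edgeR adjusted p = 0.00162), from 1 to 4 counts to 14 to 16, and the vessel genes Kdr and Tek had 0 to 2 counts in every library. Of 3 tested red cell genes 2 were higher, of 3 melanocyte genes 2 were lower, and all 3 tested goblet cell genes were higher. The order of the KO libraries differed within the stromal list. Its summed level was lowest in KO replicate 2, as were Dcn and Vim. Col1a1, with 27, 49 and 51 counts in KO replicates 1 to 3, was lowest in KO replicate 1, as were most members. Whether stroma taken along with the epithelium had a part in the members' rise was not tested.

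Among the epithelial lists, 7 of 9 corneal genes were lower in KO, 1 was higher and 1 did not pass, and 4 of 5 genes of keratinised epithelium were higher and 1 was lower. The lower gene was Ivl, which encodes involucrin (log2 fold change -0.60, edgeR adjusted p = 0.0333), a call lost in 4 of 14 alternatives. Krt14, the gene whose promoter drives the Cre, had 5207, 25400 and 6712 counts in WT against 184100 to 223500 in KO. Epithelial make-up and leukocyte transcripts changed with the same genotype label, and their parts in the summed level of a sample cannot be told apart here.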

How the data were processed

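Bulk RNA-seq of separated corneal epithelium was used, 3 WT and 3 KO libraries grouped by their genotype labels. Per the study's methods and processing notes, ribosomal RNA was depleted, single-end reads of 50 bases were aligned with Bowtie2 2.2.5, and the authors derived gene levels with RSEM 1.2.12. The estimated counts deposited by the authors split ambiguous reads between genes, so shared sequence can move a level between neighbours such as Lyz2 and Lyz1. The deposited FPKM scale these by transcript length and depth, and the deposited TPM sum to 1000000 in each library. The labels name another genome build, but the table's coordinates are those of GRCm38. Whether the counting used strand is not given in the sources used here. The authors' own fold changes and p-values in the table were not used. All 18 columns of per-library values matched a labelled sample.

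For the comparison of genotypes, estimated counts were rounded and entered into edgeR 4.0.16 under R 4.3.3 (TMM, filterByExpr, quasi-likelihood test, genotype only, Benjamini-Hochberg over 13305 genes). The test was tried on simulated data. The WT and KO libraries came from different animals, and per the study's methods the samples were biologically independent. The p-values measure the spread between libraries. Whether a library held a single animal or a pool is not given in the sources used here. Ratios to Ptprc were compared by exact permutation (scipy 1.17.1). Members and gene lists were chosen with earlier results of these data known. All members, all genes of the pathway lists and up to 5 genes of highest mean TPM of each cell type list could be named, together with Rela, Ptprc and Lyz1. Csf2, C1rb and 5 further listed genes were not analysed here, and the values of some other listed genes are not reported here. Shared stretches and coding sequences came from GENCODE M21 and promoters from RefSeq (GRCm38.p6). Alternatives were DESeq2 1.42.0, RLE factors, library totals, other filters, limma-trend 3.58.1 on log2 FPKM with 1 or 0.1 added, the replicate number as a block, leaving out each library, and other sums of the members. Scripts ran under Python 3.11.15 (numpy 2.4.6, pandas 2.3.3, matplotlib 3.10.9).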

Additional observations from a re-analysis of the deposited data

How the results depend on the processing

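Each of the 9 called members kept its direction and its call under every alternative in which it was tested, 13 or 14 each. A mean count of at least 50 removed Adgre1, Tyrobp and Fcer1g from the test, which left 6 members called and 5 at the study threshold, and among the other lists 68 genes called instead of 110 and 47 higher instead of 84. In the other alternatives 7 to 9 members were at the study threshold, with DESeq2 at 9. With log2(FPKM + 1) the fold changes of low genes shrank by construction, to 0.60 for Adgre1. Cd68, which never passed, turned to -0.008 with library totals, -0.020 with log2(FPKM + 1) and -0.021 with log2(FPKM + 0.1), and lay between -0.034 and 0.222 when single libraries were left out. The summed level of the members had a log2 ratio of 1.320, which was 1.086 as TPM and 3.308 without Cd68, a choice made after seeing the data, and 1.227 to 1.379 when single libraries were left out. The median log2 fold change of all genes moved to -0.088 with library totals and 0.106 with DESeq2.

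Genes that did not pass and changed sign included Lyn (0.009 at a mean count of at least 50, 0.004 with the replicate block, and -0.190 to 0.135 when single libraries were left out) and Cd79b (-0.018 with library totals, -0.009 with log2(FPKM + 1), -0.017 with log2(FPKM + 0.1), and -0.296 to 0.337). Leaving out single libraries gave -0.204 to 0.007 for Tlr4, -0.762 to 0.461 for Serping1, -0.129 to 0.410 for Irf8 and -0.223 to 0.118 for Tyr. Calls were gained by Plac8 (lower, with the replicate block and without KO replicate 3), by Ctsb (higher, with DESeq2 and without KO replicate 1), and in 1 alternative each by Folr2 and Arhgdib. Same-numbered WT and KO libraries shared only a number, with correlations of their deviations of 0.0345, -0.00998 and 0.0606. With the replicate number as a block 9 members and 109 genes of the other lists were called, against 9 and 110 without it, and the count for all genes at the study threshold was 2258 against 2639. The cause of these changes was not tested. Depth limits the WT values most, since 7 members had under 20 counts in every WT library, and genes such as Trem2 could not be tested.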
